A study of Mus musculus with 2 samples.

Results

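Postn, Comp, Ccn2, Timp1, Ltbp2, Fap, Acta2, Fn1, Lox and Thbs1 are genes of the matricellular and myofibroblast activation response, 10 of the 32245 genes in the deposited matrices, all found by symbol. They were chosen by their measured CF-KI over Control ratios in earlier results of these data, in which their direction depended on how many mitochondrial UMIs a nucleus may hold. The differences between the libraries are therefore a description of a chosen set. UMIs are unique molecular identifiers, which count captured RNA molecules.

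The data are 2 single-nucleus RNA libraries from mouse heart, 1 per group, made with a 10x Genomics 3′ v3 kit. CF-KI is Tcf21-MerCreMer;Nlrp3-A350V/A350V and Control is Tcf21-MerCreMer;Nlrp3-WT/WT; both were male C57Bl6/J mice of 3.5 months, both received tamoxifen, and both carry the inducible Cre. NLRP3 is an inflammasome sensor, A350V is an activating change, and Cre driven by Tcf21 acts in cells that use this fibroblast gene. The series describes the allele as silenced where Cre is not expressed. The number of animals behind each library is not stated in the sources used here, so animal, library and genotype cannot be told apart, and no test between the groups was possible. All intervals below are 95% intervals that cover counting error only.

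Resting cardiac fibroblasts can become activated after injury: they take up a contractile phenotype, marked by smooth muscle actin, and secrete new matrix. Matricellular proteins such as periostin, the CCN proteins and the thrombospondins are secreted into the matrix but act on cells more than they hold tissue together. Fibronectin forms the early scaffold, latent TGF-beta binding proteins and lysyl oxidase help to assemble and crosslink fibres, and proteases and their inhibitors remodel them.

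The CF-KI library held 15077 barcodes and 21603653 UMIs and the Control library 11257 barcodes and 18040776 UMIs, with 46 barcode sequences in common. After removal of doublets 12681 and 10858 nuclei were kept. The median mitochondrial share of a barcode's UMIs was 14.2% in CF-KI and 3.46% in Control. Fibroblast-like nuclei numbered 3686 in CF-KI and 3573 in Control, and all 9 fibroblast markers were above their level over all kept nuclei in both. Most of them came from different clusters: one cluster held 2701 CF-KI and 131 Control nuclei, another 254 and 2393, and the last 731 and 1049. Tcf21, the gene that drives the Cre, was at 135 CPM in CF-KI and 131 CPM in Control. CPM here is the usual count per 1e6, taken over the non-mitochondrial UMIs of the class. Nlrp3 had 6 UMIs in CF-KI fibroblast-like nuclei and 0 in Control, where 3 UMIs, the limit taken for a count of 0, would be 0.728 CPM. This was not confined to fibroblast-like nuclei. Nlrp3 had 9 CF-KI and 0 Control UMIs in cardiomyocyte-like nuclei, and 4 and 0 in both endocardial-like and endothelial-like nuclei. Macrophage-like nuclei held 8 and 18, and all kept nuclei 34 and 19. The summed level of the 8 cardiomyocyte markers was 13504 CPM in CF-KI and 4669 CPM in Control fibroblast-like nuclei, with none at 0. The fibroblast markers summed to 13454 and 19762 CPM and the 5 erythroid markers to 2065 and 439 CPM. The airway epithelial markers summed to 0 and 616 CPM, and the 125 airway epithelial-like nuclei were all in Control. The part of these levels in the differences below was not tested.

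In fibroblast-like nuclei with no mitochondrial limit, Postn, Comp and Ltbp2 were lower in CF-KI by more than 2-fold. These 3 of 10 genes compare with 2.8% of the 12610 genes compared that were lower by 2-fold. None of the 10 was higher by 2-fold, against 5.34% of all genes. The median log2 ratio of CF-KI over Control was -0.42 over the 10 genes and -0.02 over all genes. Ccn2 and Fn1 were lower by less than 2-fold, Acta2 was higher by less than 2-fold, and the intervals of Timp1, Fap, Lox and Thbs1 included no difference. At 1.5-fold the counts were 3 lower, against 9.9% of all genes, and 1 higher (Acta2), against 11.7%. Because the rule rests on this same contrast, nothing further is read from these counts.

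The promoters below are printed because Postn and Ltbp2 were both lower. Promoter windows of 4 of the 10 genes (Postn, Ltbp2, Timp1 and Acta2) were found in RefSeq's table for GRCm38.p6. The Postn window is chr3:54360857-54361106 on the plus strand, just before the start site. The Ltbp2 window is chr12:84876533-84876741 on the minus strand, kept to the bases before the annotated gene. Capitals mark TATAAA, the TATA box.
Postn: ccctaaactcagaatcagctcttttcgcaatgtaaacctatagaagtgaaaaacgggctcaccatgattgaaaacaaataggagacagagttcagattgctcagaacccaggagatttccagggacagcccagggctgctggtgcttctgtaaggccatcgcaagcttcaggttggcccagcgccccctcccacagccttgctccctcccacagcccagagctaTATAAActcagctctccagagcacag
Ltbp2: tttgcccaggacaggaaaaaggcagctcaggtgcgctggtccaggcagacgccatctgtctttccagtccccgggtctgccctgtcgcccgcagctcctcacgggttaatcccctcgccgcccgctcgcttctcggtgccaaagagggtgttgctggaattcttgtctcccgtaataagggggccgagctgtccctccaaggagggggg
The motifs searched on both strands were TATAAA, the TEAD motif GGAATG and the AP-1 motif TGANTCA, which share no match here. The Postn match to TATAAA begins 26 bases before the start site. Over 32851 windows of 250 bases, 12.4% held TATAAA, 12.6% GGAATG and 6.75% TGANTCA. Ltbp2 held none of these letters in its window. The Timp1 and Acta2 windows each held 1 GGAATG. The Acta2 window overlaps the annotated first exon and is not printed. A match is a run of letters, not a measured binding site.

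Postn encodes periostin, a matricellular protein of activated fibroblasts and valves. The gene lies at chr3:54361109-54391037 of GRCm38 (identifier ENSMUSG00000027750). CF-KI fibroblast-like nuclei held 290 Postn UMIs, a level of 89.9 CPM, and Control nuclei held 879 UMIs, a level of 213 CPM. The log2 ratio was -1.25 (interval -1.44 to -1.05). The UMIs were unevenly spread: 1 Control nucleus alone held 115, and the 10 richest nuclei held 40.4% of the Control and 24.8% of the CF-KI UMIs. Without the richest nucleus of each library the log2 ratio was -1.13. The share of nuclei with a Postn UMI, after thinning each nucleus to 500 UMIs, was 3.05% in CF-KI (interval 2.50 to 3.68) and 3.69% in Control (3.09 to 4.36), so these shares overlapped while the levels did not. Thinning left out 276 CF-KI and 73 Control nuclei, and the shares before it were 4.99% and 6.58%.

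The same share in cardiomyocyte-like nuclei, which serve as a background for free RNA, was 0.856% in CF-KI and 0.487% in Control. Median UMIs per nucleus, with mitochondrial ones, were 914 and 1023 in fibroblast-like and 1525 and 2249.5 in cardiomyocyte-like nuclei. Without mitochondrial UMIs the fibroblast-like medians were 752.5 in CF-KI and 956 in Control. The thinned Postn shares of fibroblast-like nuclei lay above those of cardiomyocyte-like nuclei in both libraries. Whether they exceeded what free RNA would give was not tested.

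Comp encodes cartilage oligomeric matrix protein, a pentameric thrombospondin that binds collagen (chr8:70373558-70382066). It had 73 UMIs in CF-KI and 234 in Control fibroblast-like nuclei, or 22.6 and 56.8 CPM. The log2 ratio was -1.33 (-1.73 to -0.94). One CF-KI nucleus held 21 of the UMIs and 1 Control nucleus held 28. The thinned share of nuclei with a Comp UMI was 0.616% in CF-KI (interval 0.382 to 0.940) and 1.54% in Control (1.16 to 2.01), against 1.09% and 2.77% before thinning. The CF-KI share overlapped with that of CF-KI cardiomyocyte-like nuclei, 0.571% (0.339 to 0.900), while the Control share was above the 0.365% of Control cardiomyocyte-like nuclei.

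Ccn2 encodes connective tissue growth factor, a TGF-beta and YAP response gene (chr10:24595442-24598683). Its 713 CF-KI UMIs gave 221 CPM and its 1209 Control UMIs 293 CPM. The log2 ratio was -0.41 (-0.54 to -0.27), past counting error but short of 2-fold. Thbs1 encodes thrombospondin 1, an activator of latent TGF-beta (chr2:118111876-118127133). Its levels of 88.1 CPM in CF-KI, from 284 UMIs, and 81.8 CPM in Control, from 337 UMIs, overlapped, and the log2 ratio was 0.11 (-0.13 to 0.34).

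Fn1 encodes fibronectin (chr1:71585520-71653200). It was at 139 CPM in CF-KI, from 449 UMIs, and at 188 CPM in Control, from 775 UMIs, with a log2 ratio of -0.43 (-0.60 to -0.26). Ltbp2 encodes a latent TGF-beta binding protein of elastic microfibrils (chr12:84783212-84876532). It had 50 UMIs in CF-KI and 164 in Control, or 15.5 and 39.8 CPM, and its log2 ratio of -1.36 (-1.85 to -0.89) was the lowest of the 10. After thinning, 0.499% of CF-KI (0.291 to 0.797) and 1.23% of Control fibroblast-like nuclei (0.891 to 1.65) held an Ltbp2 UMI, against 1.00% and 2.85% before it. The CF-KI share overlapped with that of thinned CF-KI cardiomyocyte-like nuclei, 0.159% (0.051 to 0.370). The Control share was above the 0.203% (0.066 to 0.473) of Control cardiomyocyte-like nuclei. Lox encodes lysyl oxidase, which crosslinks collagen and elastin (chr18:52516067-52529867). Its 47 CF-KI and 81 Control UMIs gave 14.6 and 19.7 CPM, and the interval of its log2 ratio of -0.43 ran from -0.98 to 0.10.

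Fap encodes fibroblast activation protein, a cell surface serine protease (chr2:62500943-62574075). It was at 93.0 CPM in CF-KI, from 300 UMIs, and at 83.7 CPM in Control, from 345 UMIs, a log2 ratio of 0.15 (-0.08 to 0.38). Its UMIs were spread thinly, with no more than 3 in any nucleus of either library. Timp1 encodes a tissue inhibitor of metalloproteinases (chrX:20870166-20874735). Its 89 CF-KI and 124 Control UMIs gave 27.6 and 30.1 CPM, a log2 ratio of -0.12 (-0.53 to 0.28).

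Acta2 encodes smooth muscle alpha-actin, the contractile marker of myofibroblasts (chr19:34241090-34255590). It had 70 UMIs in CF-KI and 55 in Control fibroblast-like nuclei, or 21.7 and 13.3 CPM, a log2 ratio of 0.70 (0.17 to 1.24). The gene was also higher in CF-KI cardiomyocyte-like nuclei, at 25.9 against 6.0 CPM. After thinning, 0.997% of CF-KI fibroblast-like nuclei (0.691 to 1.39) and 1.59% of CF-KI cardiomyocyte-like nuclei (1.18 to 2.08) held an Acta2 UMI. The fibroblast-like share was thus not above the cardiomyocyte-like one there. Whether the Acta2 UMIs of either class came from free RNA was not tested. In Control the shares were 0.629% and 0.365%. Before thinning, the fibroblast-like shares were 1.74% and 1.17%. Free RNA was also subtracted, with the pooled level of all kept nuclei of a library standing in for its profile. Its share, estimated from the 8 cardiomyocyte markers, was 50.8% of the CF-KI and 26.0% of the Control fibroblast-like UMIs. The Acta2 log2 ratio was then -0.03. Because that profile includes the fibroblast-like nuclei themselves, the subtraction can also remove their own RNA, and these values are rough. The summed level of the 6 smooth muscle markers was 79.7 CPM in CF-KI and 59.9 CPM in Control fibroblast-like nuclei, with none at 0.

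Several of the genes overlap another annotated gene on the opposite strand (Ccn2, Fn1, Lox, Ltbp2, Thbs1 and Timp1). The strand setting of the counting is not given in the sources used here, and whether any reads came from these partners was not tested.

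The direction of several genes changed with the mitochondrial share of the nuclei kept. A limit of 5% kept 56 CF-KI fibroblast-like nuclei, 1.52% of them, and 1459 Control nuclei, 40.8%. Under this limit Comp, Acta2, Timp1 and Ccn2 were higher in CF-KI by 2-fold, 4 of 10, against 13.7% of 8907 genes. None of the 10 was lower by 2-fold, against 2.75%. The median log2 ratio over the 10 genes was 0.66 and over all genes 0.17.

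The UMIs behind these 4 differences came from few CF-KI nuclei. Comp had 28 UMIs in 3 CF-KI nuclei, 21 of them in 1 nucleus, and 34 UMIs in 24 Control nuclei. Its levels of 465 and 22.9 CPM gave a log2 ratio of 4.34, and 2.64 without the richest nucleus of each library. Ccn2 had 39 UMIs in 12 CF-KI nuclei, with 12 in 1 nucleus, and 262 in 151 Control nuclei. Its levels were 647 and 177 CPM and its log2 ratio 1.87 (1.35 to 2.36), or 1.53 without the richest nuclei. Timp1 had 6 UMIs in CF-KI, 4 of them in that same nucleus, and 25 in Control, a log2 ratio of 2.56 (0.99 to 3.88) that was 1.19 without the richest nuclei. Acta2 had 8 UMIs in 4 CF-KI nuclei, 5 of them in 1, and 21 in 16 Control nuclei, a log2 ratio of 3.23 (1.84 to 4.46) that was 2.24 without the richest.

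The other 6 genes did not pass 2-fold under the 5% limit. Fn1, with 12 and 149 UMIs, had a log2 ratio of 0.99 (0.00 to 1.83). Postn, with 7 UMIs in CF-KI and 178 in Control, stood at 116 and 120 CPM, a log2 ratio of -0.05 (-1.38 to 1.03). Thbs1 had 3 and 87 UMIs and a log2 ratio of -0.24, and Lox had 1 and 30 UMIs and a log2 ratio of -0.29. Fap had 1 UMI in CF-KI and 128 in Control, and the interval of its log2 ratio of -2.38 ran from -7.69 to 0.12; with the CF-KI count set to 3 UMIs, the lowest count used for a call, the ratio was -0.79. Ltbp2 had 0 UMIs in CF-KI. The limit taken for a count of 0, 3 UMIs, was 49.8 CPM there, above the 29.7 CPM of Control, so no difference was detectable at this depth.

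In the largest fibroblast-like subcluster alone, the 5% limit kept 45 CF-KI and 1218 Control nuclei. There 6 of the 10 genes had the 20 UMIs over both libraries needed to be compared. None of the 6 was higher by 2-fold, against 15.3% of 7658 genes, and none was lower, against 1.33%; their median log2 ratio was 0.07, beside 0.20 over all genes. Ccn2, with 5 and 129 UMIs, had a log2 ratio of 0.34 (-1.30 to 1.60), and Fn1, with 4 and 80 UMIs, one of 0.71 (-1.20 to 2.12). Acta2 had 2 and 8 UMIs and Timp1 1 and 14, too few to be compared, and the intervals of their log2 ratios, 3.03 and 1.22, included no difference.

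**Figure D1:**
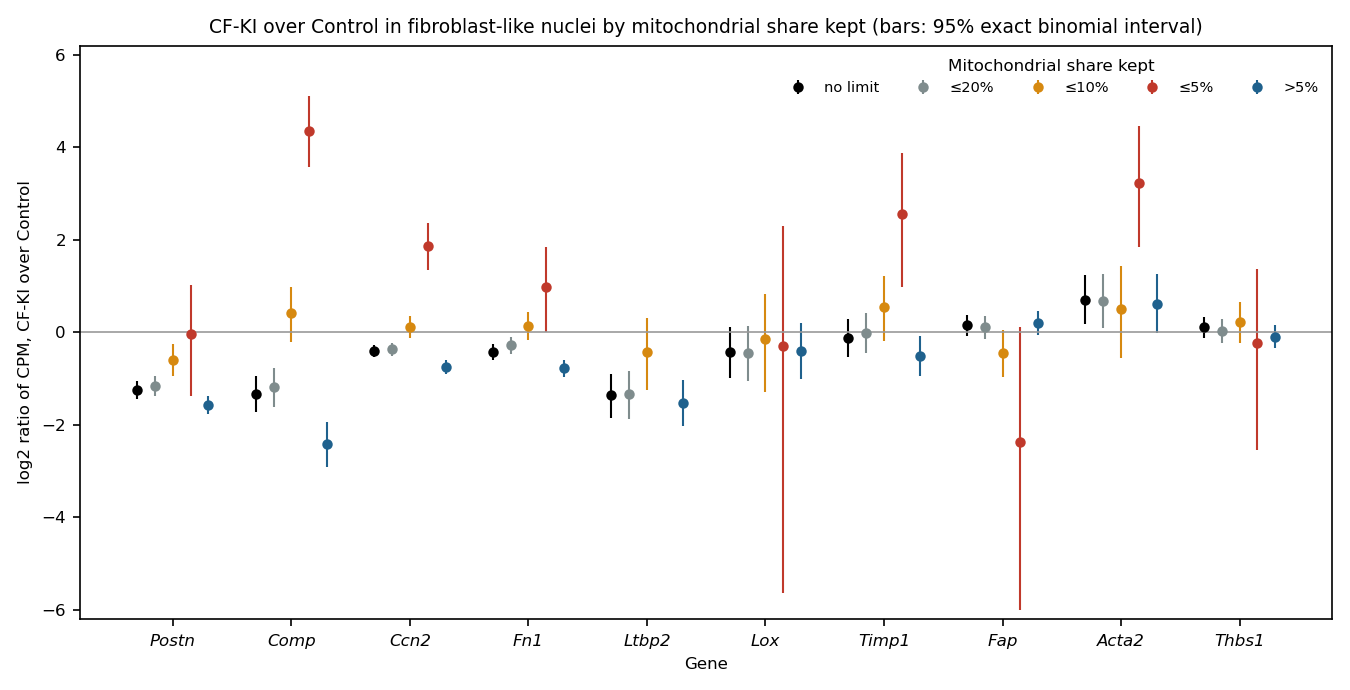
Log2 ratio of CF-KI over Control CPM (vertical axis) of each gene in fibroblast-like nuclei, by the mitochondrial share of the nuclei kept; bars are 95% exact binomial intervals, cut at the axis where they run below -6, and Ltbp2 has no point at the 5% limit because it had 0 UMIs in CF-KI. Comp goes from -1.33 with no limit to 4.34 at the 5% limit and -2.41 in the nuclei over 5%.

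Nuclei over 5% mitochondrial UMIs, which are 3630 CF-KI and 2114 Control nuclei, had Comp, Ccn2, Fn1 and Timp1 in the other direction. Here Comp had 45 and 200 UMIs and a log2 ratio of -2.41 (-2.91 to -1.94), Postn -1.57 (-1.77 to -1.37) and Ltbp2 -1.52 (-2.03 to -1.04). These 3 of 10 genes were lower by 2-fold, against 2.58% of 12126 genes, and none was higher, against 6.08%. Ccn2 stood at -0.75, Fn1 at -0.78 and Timp1 at -0.52, all with intervals below 0. Acta2 stood at 0.61 (-0.02 to 1.25).

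Within strata of mitochondrial share the levels moved differently in each library. Control Comp was at 22.9 CPM in nuclei of at most 5%, 54.7 at 5 to 10%, 117 at 10 to 20% and 167 at 20 to 40%. CF-KI Comp was at 465 CPM at most 5%, then at 5.8, 15.4 and 15.9 CPM. The last Control value rests on 11 UMIs in 2 of 64 nuclei, with an interval of 83.1 to 298 CPM that overlaps the level at 10 to 20%, and 3.13% of nuclei held a Comp UMI there against 5.04% at 10 to 20%. CF-KI Comp was lower in these next 3 strata than at most 5%. The stratum over 40% held 29 CF-KI and 4 Control nuclei, with 1 and 0 Comp UMIs. Control Comp UMIs were concentrated in few nuclei. At 5 to 10%, 1 nucleus held 26 of 98 and the 10 richest held 62.2%. At 10 to 20%, 1 nucleus held 28 of 91 and the 10 richest held 65.9%.

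Postn in Control was at 120, 277, 237 and 288 CPM over the same 4 strata, and in CF-KI at 116, 139, 82.9 and 67.8 CPM. The log2 ratios were -0.05, -0.99, -1.52 and -2.08. At 5 to 10%, 1 Control nucleus held 115 of the 496 Postn UMIs. The 10 richest Control nuclei held 55.1%, 61.9% and 56.2% of the Postn UMIs in the first 3 strata. Fn1 in Control was at 100 CPM at most 5% and at 215, 270 and 469 CPM above, while in CF-KI it was at 199, 178, 143 and 93.8 CPM. The Control stratum of 20 to 40% held only 64 nuclei, with 19 Postn and 31 Fn1 UMIs.

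The stratum of 10 to 20% was the best filled in both libraries at once, with 2142 CF-KI and 674 Control nuclei. In it Postn, Comp and Ltbp2 were lower by 2-fold in CF-KI (3 of 10, against 3.27% of 10559 genes), with log2 ratios of -1.52, -2.92 and -1.88. Acta2 was higher by 2-fold (1 of 10, against 7.36%), with 40 UMIs in CF-KI and 4 in Control. Ccn2 stood at -0.80 and Fn1 at -0.92. Fap was higher at 0.48 (0.04 to 0.94).

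The subclusters were unevenly spread over these strata. The adventitial-like subcluster made up 12.6% of Control nuclei at most 5% mitochondrial UMIs, 44.5% at 5 to 10%, 49.7% at 10 to 20% and 34.4% at 20 to 40%. In CF-KI it made up 12.5%, 23.3%, 28.3% and 20.5%. The cardiomyocyte markers summed to 5287, 3916, 4170 and 14500.2 CPM in these 4 Control strata and to 12402, 12066, 12828 and 15691 CPM in the CF-KI strata. Their part in the strata's levels was not tested.

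**Figure D2:**
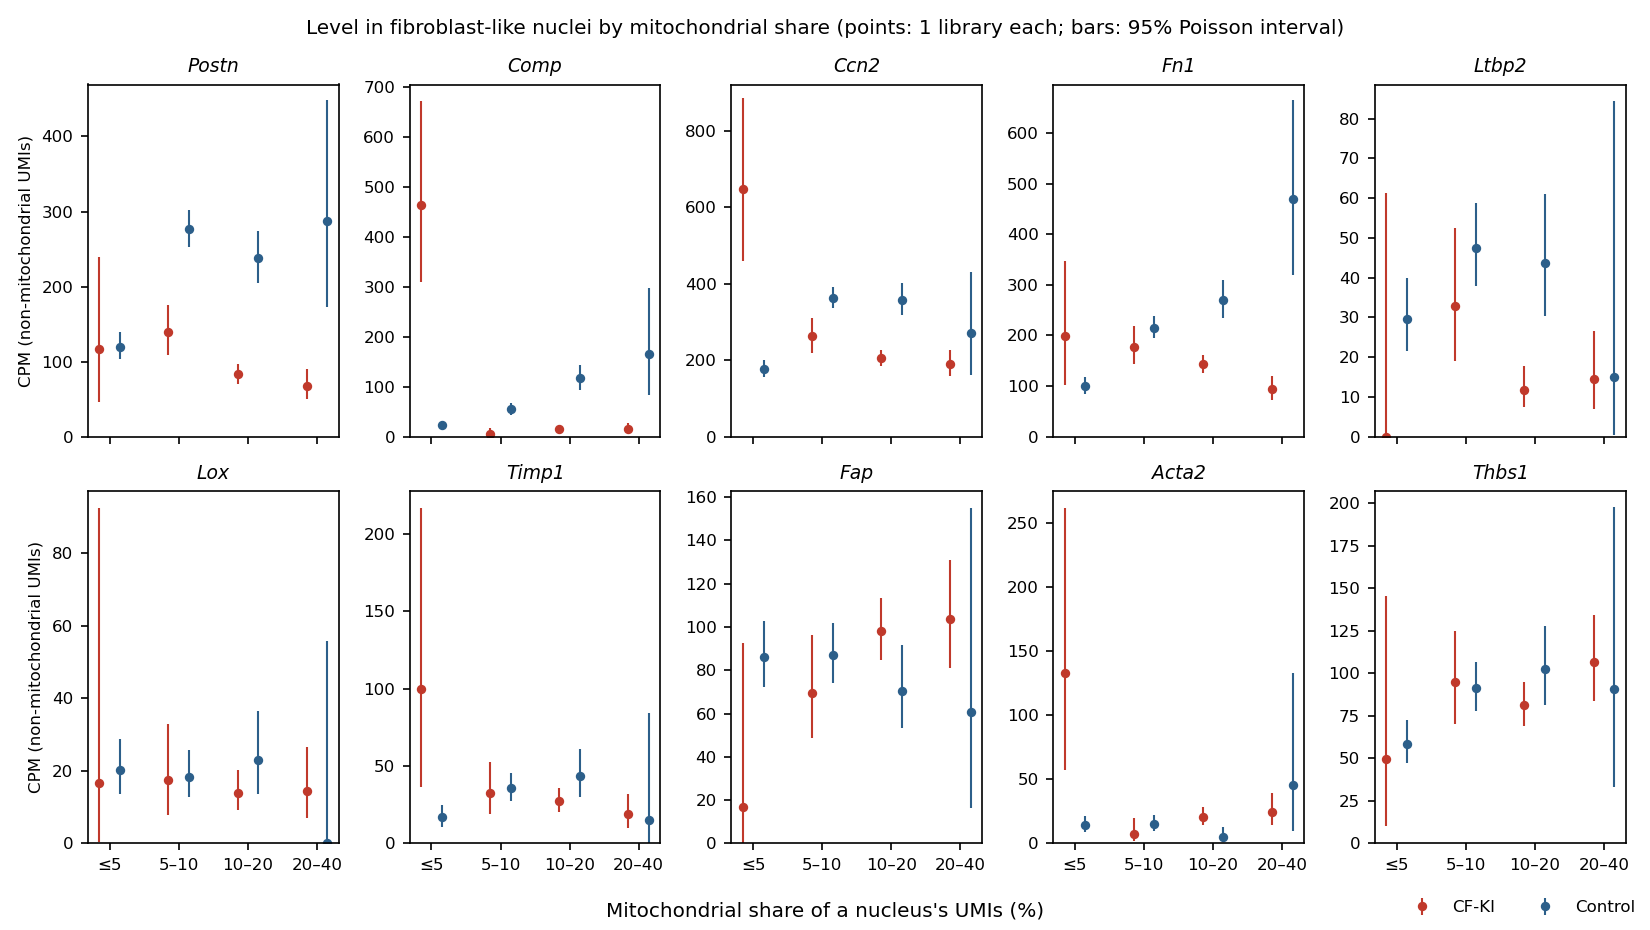
CPM of each gene (vertical axis, from 0) in fibroblast-like nuclei by mitochondrial share of the nucleus (horizontal axis, in %); points are the 2 libraries and bars 95% Poisson intervals. Comp in CF-KI is at 465 CPM in the first stratum, from 56 nuclei, and at 5.8 to 15.9 CPM in the 3 others plotted.

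Clustered again without these genes, the fibroblast-like nuclei fell into a largest subcluster with no naming markers (2633 CF-KI and 2276 Control nuclei), an adventitial-like one (928 and 1152), and small ones. Of these, the subcluster led by Chad and Wif1, genes of cartilage-like matrix and of Wnt inhibition, held 27 and 45 nuclei. It carried both valve interstitial and Wif1 fibroblast markers, 4 of 6 and 3 of 4, and is left unnamed. Neither library reached the planned minimum of 50 nuclei for subcluster levels there, so its levels below lie outside the plan. An interferon-like subcluster held 47 and 72 nuclei.

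Postn was 3.38-fold lower in CF-KI in the adventitial-like subcluster: 111 CPM from 128 UMIs in CF-KI and 375 CPM from 703 UMIs in Control. The log2 ratio was -1.76 (-2.04 to -1.48). The 10 richest nuclei held 49.2% of these CF-KI and 49.6% of these Control UMIs, and 1 Control nucleus held 115. After thinning, 3.40% of CF-KI (2.32 to 4.79) and 5.88% of Control nuclei (4.58 to 7.40) held a Postn UMI, with overlapping intervals. In the largest subcluster the levels were 64.3 and 62.9 CPM and the log2 ratio 0.03 (-0.33 to 0.40). In the Chad and Wif1 subcluster, levels were higher than in either, 937 CPM in CF-KI and 671 CPM in Control, and overlapped (log2 ratio 0.48, -0.25 to 1.22). The adventitial-like subcluster held 80.0% of the Control and 44.1% of the CF-KI Postn UMIs of fibroblast-like nuclei.

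Comp was lower in CF-KI in each of these subclusters. The log2 ratio was -1.38 (-2.20 to -0.62) in the largest, with 20 and 55 UMIs, and -1.56 (-2.27 to -0.90) in the adventitial-like, with 23 and 110 UMIs. In the latter the 10 richest nuclei held 82.6% of the CF-KI and 56.4% of the Control UMIs, with 26 in 1 Control nucleus. Thinned shares of nuclei with a Comp UMI overlapped in both subclusters. They were 0.459% (0.229 to 0.820) and 1.13% (0.732 to 1.66) in the largest. In the adventitial-like they were 0.658% (0.242 to 1.43) and 1.58% (0.938 to 2.48). In the Chad and Wif1 subcluster Comp was at 795 CPM in CF-KI and 1302 CPM in Control, a log2 ratio of -0.71 (-1.40 to -0.05). There 1 nucleus held 21 of the 28 CF-KI UMIs and 1 held 28 of the 66 Control UMIs. The thinned shares of its nuclei with a Comp UMI, 11.1% (2.35 to 29.2) and 22.2% (11.2 to 37.1), overlapped. That subcluster held 0.733% of CF-KI and 1.26% of Control fibroblast-like nuclei, but 38.4% and 28.2% of their Comp UMIs. Of the 28 CF-KI Comp UMIs in nuclei of at most 5%, 21 were in a nucleus of this subcluster and the other 7 in nuclei of the adventitial-like subcluster.

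Ltbp2 was lower in CF-KI by a like amount in the largest subcluster, with a log2 ratio of -1.21 (-2.15 to -0.33), and in the adventitial-like subcluster, with -1.19 (-1.81 to -0.61). Thinned shares of nuclei with an Ltbp2 UMI overlapped in both. They were 0.334% (0.144 to 0.657) and 0.722% (0.413 to 1.17) in the largest. In the adventitial-like they were 0.877% (0.379 to 1.72) and 1.84% (1.14 to 2.80). Ccn2 was lower in the adventitial-like subcluster, at 295 against 454 CPM (-0.62, -0.81 to -0.44), and stood at 160 against 135 CPM in the largest (0.24, 0.00 to 0.47). Fn1 was at 239 and 296 CPM in the adventitial-like subcluster (-0.31, -0.52 to -0.10) and at 79.8 and 89.2 CPM in the largest (-0.16, -0.48 to 0.16). Both genes had higher levels in the adventitial-like than in the largest subcluster in both libraries.

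Acta2 in the largest subcluster was at 21.1 CPM in CF-KI, from 41 UMIs, and 5.8 CPM in Control, from 12 UMIs. The Chad and Wif1 subcluster held 6 CF-KI and 21 Control Acta2 UMIs, or 170 and 414 CPM, which is 38.2% of the Control and 8.57% of the CF-KI Acta2 UMIs of fibroblast-like nuclei. Without this subcluster the Acta2 log2 ratio was 1.26, past 2-fold. Thbs1 in the Chad and Wif1 subcluster was at 255 CPM in CF-KI and 927 CPM in Control, from 9 and 47 UMIs. Of these Control UMIs 16 were in 1 nucleus, and 25.9% of CF-KI and 22.2% of Control nuclei there held a Thbs1 UMI. In the largest subcluster Thbs1 was higher in CF-KI, at 69.5 against 50.7 CPM (log2 ratio 0.46, 0.08 to 0.84). Its log2 ratio in the adventitial-like subcluster was 0.18 (-0.16 to 0.52).

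Timp1, Fap and Lox did not differ beyond counting error in the largest or the adventitial-like subcluster. Timp1 was higher in the adventitial-like subcluster, at 48.5 and 41.6 CPM, than in the largest, at 16.0 and 18.0 CPM. Fap had the opposite placing, at 65.9 and 66.6 CPM against 112 and 102 CPM. Lox stood at 15.6 and 24.0 CPM in the adventitial-like and at 13.4 and 15.1 CPM in the largest subcluster.

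In the adventitial-like subcluster 3 of 10 genes were lower by 2-fold (against 3.48% of 10605 genes) and none was higher (4.29%). In the largest subcluster 2 of 10, Comp and Ltbp2, were lower (against 3.24% of 11484 genes) and 1, Acta2, was higher (7.42%). The median log2 ratio over the 10 genes was -0.45 in the former and -0.06 in the latter.

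**Figure D3:**
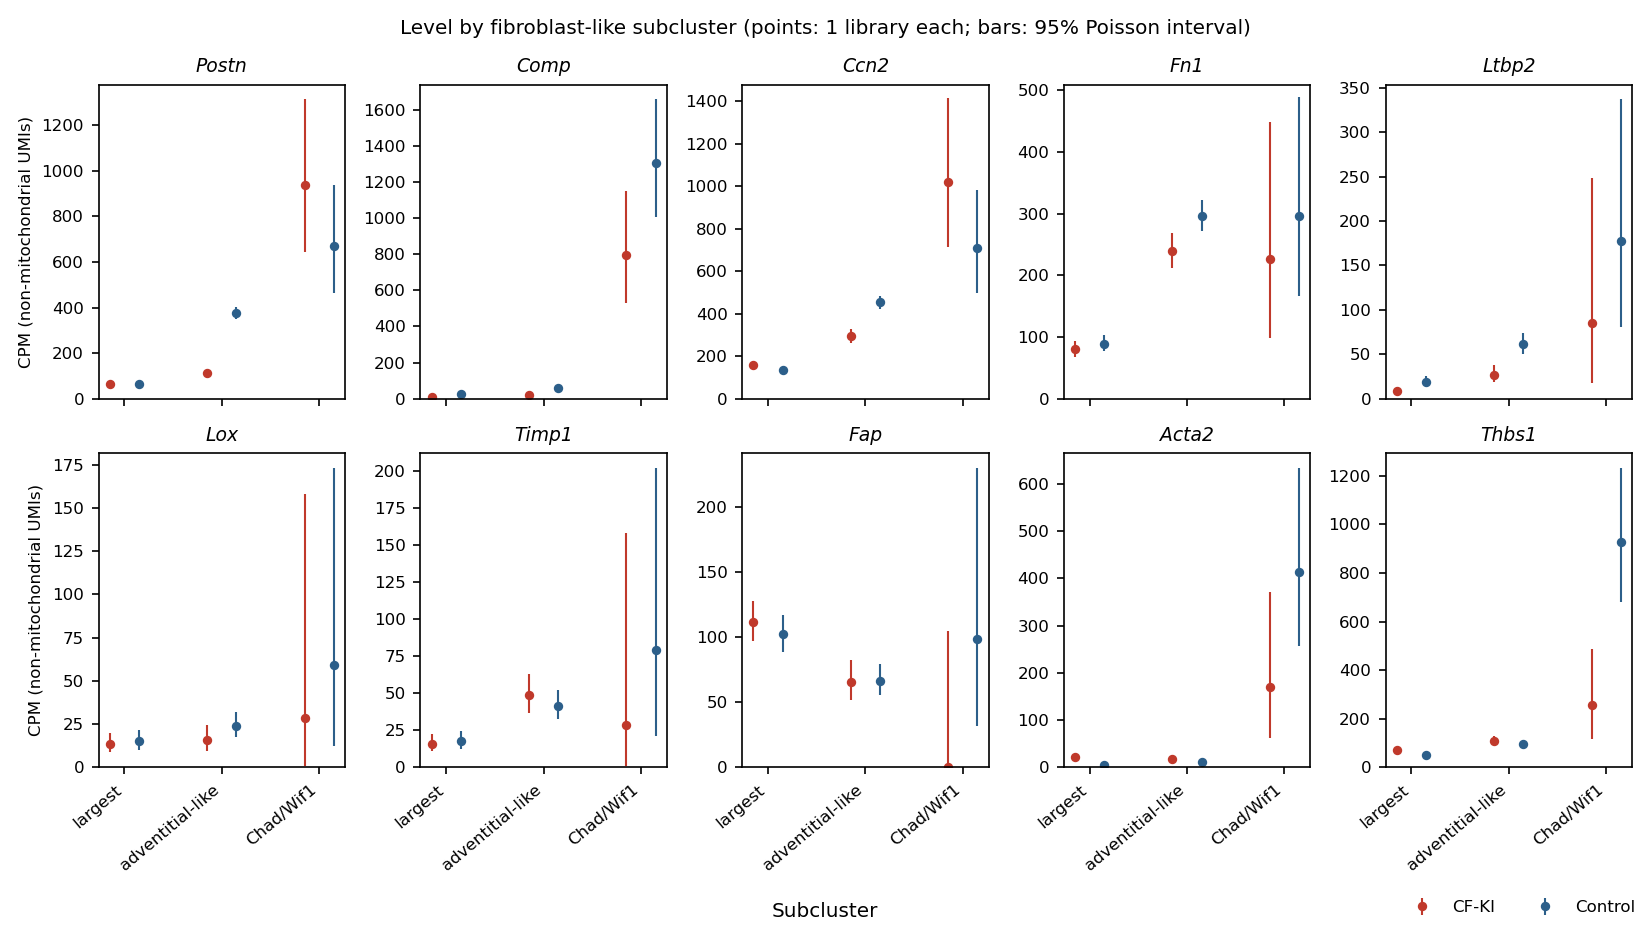
CPM of each gene (vertical axis, from 0) in the largest, the adventitial-like and the Chad and Wif1 fibroblast-like subclusters; points are the 2 libraries and bars 95% Poisson intervals. Control Postn in the adventitial-like subcluster is at 375 CPM and CF-KI at 111 CPM, while the points of the largest subcluster lie together, at 62.9 and 64.3 CPM. The Chad and Wif1 subcluster held 27 CF-KI and 45 Control nuclei, under the planned minimum of 50.

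Of the 45 pairs among the 10 genes, 44 in Control and 34 in CF-KI had the second gene in a larger share of the fibroblast-like nuclei with the first than of all. In CF-KI 2.50% of nuclei with Comp held Fap, against 7.33% of all. Of the Control fibroblast-like nuclei with a Postn UMI, 41.3% also held a Ccn2 UMI, against 14.2% of all Control fibroblast-like nuclei. In CF-KI the values were 25.0% and 11.8%. Of the Control nuclei with a Comp UMI, 46.5% held Ccn2 and 23.2% held Ltbp2, against 14.2% and 2.85% of all. Nuclei with more UMIs hold more genes, and the part of depth in these shares was not tested.

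Across nucleus classes, no class was the highest for all 10 genes. Postn was highest in pericyte-like nuclei, at 221 CPM in CF-KI and 241 CPM in Control (log2 ratio -0.12, -0.51 to 0.27). In Control the fibroblast-like level of 213 CPM overlapped with it, and the endocardial-like level of 131 CPM was below both. In CF-KI the order was pericyte-like, lymphatic endothelial-like at 141 CPM, endocardial-like at 117 CPM and fibroblast-like at 89.9 CPM, each overlapping with its neighbour. After thinning, 12.1% of CF-KI and 12.2% of Control pericyte-like nuclei held a Postn UMI.

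Comp was highest in endocardial-like nuclei, which line the heart chambers, at 76.3 CPM in CF-KI and 118 CPM in Control (log2 ratio -0.63, -1.05 to -0.21), above the fibroblast-like level in both libraries. It was spread over 69 and 102 endocardial-like nuclei with no more than 2 and 5 UMIs in any. Ccn2 was highest in fibroblast-like nuclei in Control, followed by endocardial-like at 237 CPM and pericyte-like at 116 CPM, with no overlap between these 3. In CF-KI the pericyte-like level of 217 CPM overlapped with the fibroblast-like 221 CPM. Ccn2 in pericyte-like nuclei was higher in CF-KI with a log2 ratio of 0.90 (0.42 to 1.39), opposite in sign to its ratio in fibroblast-like nuclei. The difference between these ratios was not tested.

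Thbs1 had its highest CF-KI level in platelet-like nuclei, at 686 CPM from 52 UMIs in 92 nuclei. Control had only 13 such nuclei, with 8 UMIs. Thrombospondin 1 is a protein of platelet granules. Fibroblast-like nuclei were among the highest of the other classes. In endocardial-like nuclei Thbs1 was lower in CF-KI, at 27.7 against 56.3 CPM (log2 ratio -1.02, -1.72 to -0.36).

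Fn1 in Control was highest in endocardial-like nuclei at 370 CPM and macrophage-like nuclei at 307 CPM, which overlapped. In CF-KI endocardial-like nuclei it was at 185 CPM, and the log2 ratio was -0.998 (-1.26 to -0.75). The Fn1 UMIs of macrophage-like nuclei were concentrated: the 10 richest of 528 CF-KI and 992 Control macrophage-like nuclei held 68.9% and 62.8% of the Fn1 UMIs, and the levels of 346 and 307 CPM overlapped. Ltbp2 was highest in adipocyte-like nuclei, at 117 CPM from 17 UMIs in CF-KI and 144 CPM from 48 UMIs in Control, and this was above the next class in both. Lox in Control was at 33.1 CPM in endocardial-like and 19.7 CPM in fibroblast-like nuclei, which overlapped. In CF-KI endocardial-like nuclei it was at 10.9 CPM (log2 ratio -1.60, -2.72 to -0.60).

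Fap was at 52.7 CPM in CF-KI and 105 CPM in Control pericyte-like nuclei, a log2 ratio of -0.99 (-1.74 to -0.28). In Control this overlapped with the fibroblast-like level of 83.7 CPM, and in CF-KI the fibroblast-like level of 93.0 CPM was above it. Timp1 was highest in fibroblast-like nuclei, overlapping with mesothelial-like nuclei at 23.0 and 20.9 CPM. Acta2 was highest in pericyte-like nuclei, at 261 CPM in CF-KI and 136 CPM in Control (log2 ratio 0.94, 0.50 to 1.39), where the 10 richest nuclei held 75.8% and 81.2% of its UMIs. These include a smooth muscle-like subcluster of 10 and 19 nuclei.

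By class, Lox and Thbs1, 2 of 10 genes, were lower by 2-fold in endocardial-like nuclei, against 3.46% of 10017 genes, and 1 of 10, Fap, was higher, against 6.32%. The Fap levels there, 18.8 CPM (11.3 to 29.4) in CF-KI and 8.94 CPM (4.29 to 16.4) in Control, overlapped. In cardiomyocyte-like nuclei 6 of 10 were higher in CF-KI by 2-fold, against 15.5% of 12647 genes: Postn, Timp1, Fap, Acta2, Fn1 and Thbs1, with log2 ratios from 1.05 to 2.33. The median over all genes was 0.21 in that class. The share of UMIs there that was estimated as free RNA was 23.7% in CF-KI and 9.51% in Control, and its part in these ratios was not tested. In endothelial-like nuclei 1 of the 7 genes with enough UMIs, Acta2, was higher by 2-fold (against 3% of 9896 genes), and in mesothelial-like nuclei likewise 1 of 7, Acta2 (6.48% of 9011 genes). None was lower by 2-fold in cardiomyocyte-like (2.17% of all genes), endothelial-like (4.08%) or mesothelial-like nuclei (3.98%). Neither direction held any of the 7 genes compared in macrophage-like nuclei (5.08% lower and 6.41% higher) or of the 5 in pericyte-like nuclei (5.87% lower and 10.7% higher).

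**Figure D4:**
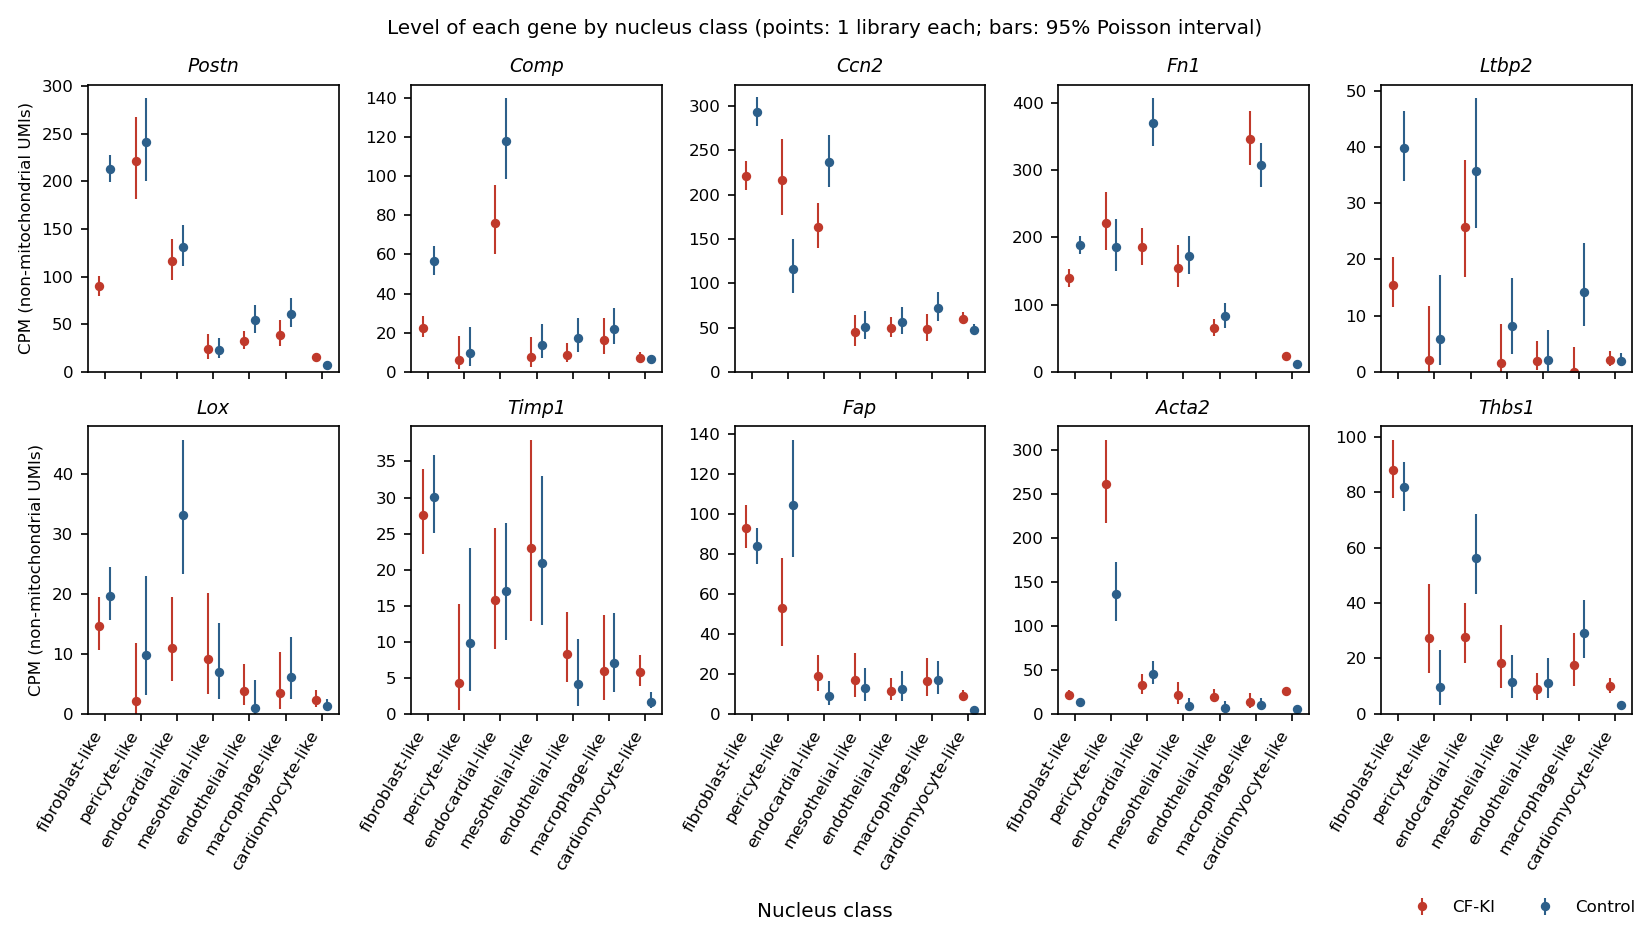
CPM of each gene (vertical axis, from 0) in the 7 largest nucleus classes; points are the 2 libraries and bars 95% Poisson intervals. Fibroblast-like Postn and Comp of CF-KI lie below those of Control with intervals that do not overlap, while the pericyte-like Postn points overlap.

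The genes whose levels were most alike each member over the 23 points of class and library with at least 50 nuclei were taken from 11077 genes with at least 200 UMIs, by Pearson's r of log2(CPM + 1). For Postn they were Clcn6 (r = 0.94), Gmppb and Mindy4, and for Comp Slc7a2 (0.87), St3gal4 and Ap3m2. For Ccn2 they were Tmem45a (0.86), C1qtnf2 and Axl, for Thbs1 Cd9 (0.85), Emp1 and Dap, and for Fn1 Fam129a (0.91), Wsb1 and Cst3. Ltbp2 was most like 9330159F19Rik (0.78), Grik5 and Tysnd1, Lox most like Gm48914 (0.85), Axin2 and Foxp4, and Fap most like Sgsh (0.85), Zfp354c and Dubr. Timp1 was most like Chst14 (0.85), Col6a6 and Gpc4, and Acta2 most like Chn1 (0.79), Cystm1 and Arhgef25. No member was among the 3 genes most alike another. The points share 2 libraries and differ in depth, so these values only describe the pattern.

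Of 53 other activation and matrix genes, 47 had enough UMIs in fibroblast-like nuclei with no limit; 6 were lower by 2-fold, against 2.8% of all genes, and 2 were higher, against 5.34%. Their median log2 ratio was -0.28. Under the 5% limit 40 had enough UMIs, 9 were higher by 2-fold, against 13.7% of all genes, and 2 lower, against 2.75%, and the median was 0.19, beside 0.17 over all genes.

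Crosslinking and assembly genes were mostly lower in CF-KI with no limit: 13 of 14 had a log2 ratio below 0. Their median was -0.53, beside -0.02 over all genes. None was higher by 2-fold, against 5.34% of all genes, and 2 were lower, against 2.8%. These were Fbln1, fibulin 1, at -1.13 (1000 and 2798 UMIs), and Eln, elastin, at -1.02 (889 and 2298 UMIs). The highest were Fbn1, fibrillin 1, at 0.03 (-0.05 to 0.11) and Fbln5, fibulin 5, at -0.18. At the 5% limit the median, with 0.5 UMI added to each count, was -0.01, beside 0.17 over all genes. There Fbln1 stood at 0.09 and Eln at -0.36. With no limit the fibroblast markers also had a lower sum in CF-KI, 13454 against 19762 CPM. The part of this in the ratios of the list was not tested.

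Of 12 matricellular and TGF-beta response genes with no limit, none was higher by 2-fold, against 5.34% of all genes, and 3 were lower, against 2.8%. Thbs4, another thrombospondin, stood at -1.72 (10 and 42 UMIs), Cilp at -1.15 (250 and 710 UMIs) and Ccn5, which lies outside the naming rule and was chosen after its value was seen, at -1.09 (125 and 340 UMIs). Nox4, an oxidase, stood at 0.13 (-0.39 to 0.65). At the 5% limit 9 of these genes had enough UMIs, and 3 were higher by 2-fold, against 13.7% of all genes, and 0 lower, against 2.75%. There Ccn5 stood at 1.05 (-0.12 to 2.03), Cilp at -0.05 (-1.95 to 1.35) and Nox4 at 1.16 from 2 and 22 UMIs, while Thbs4 had 0 and 5 UMIs.

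Among 8 proteases and inhibitors Plau, urokinase, was higher in CF-KI at 2.43 (1.75 to 3.18), from 93 and 22 UMIs, followed by Timp4 at 0.81. Plau alone was higher by 2-fold, against 5.34% of all genes, and none was lower, against 2.8%. Mmp14 stood at -0.62 and Mmp2 at -0.58. Among 8 adhesion receptors Cd36, a fatty acid and thrombospondin receptor that heart muscle and capillary endothelium also express, was higher at 1.82 (1105 and 399 UMIs). Itgav stood at 0.15, Itga8 at -0.65 and Itgb3 at -1.13 (24 and 67 UMIs).

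Of 5 contractile genes none was higher or lower by 2-fold with no limit, against 5.34% and 2.8% of all genes. Of the 5, 4 were above 0, and the median over all genes was -0.02. Palld stood at 0.82 (163 and 118 UMIs), Myl9 at 0.47, Tagln at 0.02 (27 and 34 UMIs) and Vim at -0.28 (2805 and 4361 UMIs). Under the 5% limit 3 of the 4 with enough UMIs were higher by 2-fold, against 13.7% of 8907 genes: Tagln at 3.21 from 6 CF-KI and 16 Control UMIs, Palld at 1.98 from 8 and 50, and Cnn2, chosen after its value was seen, at 1.51 from 3 and 26, with an interval (-0.86 to 3.21) that included no difference. Vim was not among them, at 0.75 from 77 and 1128 UMIs.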

How the data were processed

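Nuclear RNA from cardiac tissue was profiled in 1 CF-KI and 1 Control library with a droplet 3′ kit, per the labels. Counts of UMIs per gene and nucleus were made with Cell Ranger 6.1.1, and mm10 is named as the genome build, per the submitters' processing notes; the deposited matrices hold whole-number UMI counts. Of the nuclei with at least 200 genes, those that Scrublet marked as doublets were removed: 15.3% of the CF-KI nuclei and 3.02% of the Control nuclei. No mitochondrial limit was set in the main analysis. The libraries were clustered together with scanpy 1.11.5 (2000 variable genes, 30 principal components, 15 nearest neighbours, Leiden resolution 0.8), and fibroblast-like nuclei were clustered again at resolution 0.5. The 10 genes and the list genes, 63 in all, were held out of both steps. Classes were named from marker lists. Levels are counts of UMIs per 1e6 non-mitochondrial UMIs of a class (CPM) with exact Poisson intervals; log2 ratios have exact binomial intervals. With 1 library per group no test between groups was made, and a 2-fold difference stands for a call. Medians add 0.5 UMI to each count. A count under 3 UMIs on the lower side was set to 3 before a call. A gene was compared if the sum of its UMIs over both libraries reached 20. The ratio and its interval were tested on simulated data. Scaling factors came from edgeR 4.0.16 and DESeq2 1.42.0. The text names all 10 genes, the 2 highest and 2 lowest genes of each list by log2 ratio, the 3 genes most alike each member, Nlrp3 and Tcf21; any other gene was chosen after its values were seen. A gene that this rule names is not reported here. The members and lists were chosen with earlier results of these data known.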

Additional observations from a re-analysis of the deposited data

How the results depend on the processing

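No paired analysis was possible because each group has 1 library, both numbered replicate 1. The median log2 ratio of the 10 genes, -0.42, was 0.66 at most 5% mitochondrial UMIs, 0.13 at most 10%, -0.031 with free RNA subtracted, -0.063 in the largest subcluster and 0.075 in the largest subcluster at most 5%. The count lower by 2-fold, 3, was 0 at most 5% (also without the richest nuclei, and of 6 genes compared in the largest subcluster) and 0 at most 10%. The count higher by 2-fold, 0, was 4 at most 5% (3 without the richest nuclei, 0 of 6 in the largest subcluster) and 1 with at least 500 genes, with separate clustering, with mitochondrial strata weighted alike, without the Chad and Wif1 subcluster, in the largest subcluster and at 1.5-fold. Postn was 0.034 in the largest subcluster. Comp was 4.34 at most 5% (2.64 without the richest nuclei), 0.41 at most 10% and 0.29 with strata weighted alike. Ccn2 was 1.87 at most 5% (1.53 without the richest nuclei, 0.34 in the largest subcluster), 0.12 at most 10%, 0.0070 with strata weighted alike and 0.24 in the largest subcluster. Fn1 was 0.99 at most 5% (0.61 and 0.71 likewise) and 0.14 at most 10%. Acta2 was -0.034 with free RNA subtracted. The cause of these changes was not tested. Settings by subcluster, without the richest nuclei at most 5%, or only over 5% were chosen after seeing the data. TMM and median-of-ratios scaling shifted ratios by 0.02 and 0.03, and by -0.10 and -0.08 at most 5%. Postn ranged from -1.40 to -0.047 and Lox from -0.62 to -0.0056 over 16 planned settings, and Ltbp2 from -2.18 to -0.42 over the 15 that gave a ratio. At most 5%, 56 CF-KI nuclei limit the depth.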
